A study of Homo sapiens with 8 samples.

Results

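The genes described here are 51 protein-coding genes of the proximal long arm of human chromosome 14, lying between TTC5 at the centromere side and SPTSSA, out of 19718 genes in the deposited table. They were chosen by symbol because their transcript levels had been seen to be lower in a drug-resistant derivative of a leukaemia line than in its parent. The difference between the lines is therefore the property that selected them, and it is given below as a description without a test. What the selection did not use is the response of each gene to the drug within each line. All 51 symbols were found on chromosome 14, and 50 of them reached 1 FPKM (sequenced fragments relative to transcript length and library size) in at least 2 libraries and entered the fit, with 11255 genes in all.

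HEL92.1.7 is an established erythroleukaemia cell line, labelled as secondary acute myeloid leukaemia, and HEL OTX P/R is its derivative, called persister-resistant by the labels. OTX015 is a small-molecule inhibitor of the BET bromodomain proteins, which bind acetylated histones and promote transcription. The 4 groups are HEL92.1.7 untreated, HEL OTX P/R untreated, HEL92.1.7 exposed to 1000 nM OTX015 for 8 hours, and HEL OTX P/R exposed in the same way, each with 2 libraries from independently treated cultures. Both lines were grown in the same serum-containing medium, and 1 derivative stands for the resistant state, so that resistance and any other property of this derivative cannot be told apart. The labels used here do not say how the derivative was selected.

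Genes that lie side by side on a chromosome often have products with nothing in common, and a run of neighbours is then grouped by position alone. The proximal part of 14q is dense in housekeeping genes. They encode, among others, the catalytic arginine methyltransferase PRMT5, the FACT histone chaperone subunit SUPT16H, the messenger RNA adenosine methyltransferase METTL3, the abasic-site endonuclease APEX1, the catalytic proteasome subunit PSMB5 and the shelterin subunit TINF2. Most work inside multi-protein complexes whose other subunits are encoded elsewhere, which allows members to be set beside their partners.

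Promoter windows are shown for 4 members that span the interval from its first to its last genes and have unrelated functions, because position, and not a known common regulator, is what groups these genes. Each window holds the 250 bases before the annotated start, written 5′ to 3′ on the strand of the gene, from the RefSeq promoter table of build GRCh38.p14. Capitals mark the CCAAT box, the GC box GGGCGG, the ETS-type motif CCGGAAG and the E-box CACGTG, each on either strand. APEX1 lies on the plus strand (chr14:20454976-20455225), and PSME2 (chr14:24146611-24146860), STRN3 (chr14:31026380-31026629) and SPTSSA (chr14:34462241-34462490) lie on the minus strand.
APEX1: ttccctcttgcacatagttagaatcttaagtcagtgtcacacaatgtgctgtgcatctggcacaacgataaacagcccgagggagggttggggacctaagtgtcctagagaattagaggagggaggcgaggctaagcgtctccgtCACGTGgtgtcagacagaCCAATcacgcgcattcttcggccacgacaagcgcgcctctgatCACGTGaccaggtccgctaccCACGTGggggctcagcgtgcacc
PSME2: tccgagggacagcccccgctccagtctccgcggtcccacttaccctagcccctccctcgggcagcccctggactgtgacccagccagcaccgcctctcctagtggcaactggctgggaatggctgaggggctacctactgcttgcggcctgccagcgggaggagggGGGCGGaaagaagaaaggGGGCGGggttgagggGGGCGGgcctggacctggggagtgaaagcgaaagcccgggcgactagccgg
STRN3: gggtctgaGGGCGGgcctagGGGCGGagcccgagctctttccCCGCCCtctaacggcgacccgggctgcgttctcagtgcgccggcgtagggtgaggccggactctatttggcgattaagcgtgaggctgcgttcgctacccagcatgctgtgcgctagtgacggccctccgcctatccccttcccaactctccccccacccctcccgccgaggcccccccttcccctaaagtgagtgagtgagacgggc
SPTSSA: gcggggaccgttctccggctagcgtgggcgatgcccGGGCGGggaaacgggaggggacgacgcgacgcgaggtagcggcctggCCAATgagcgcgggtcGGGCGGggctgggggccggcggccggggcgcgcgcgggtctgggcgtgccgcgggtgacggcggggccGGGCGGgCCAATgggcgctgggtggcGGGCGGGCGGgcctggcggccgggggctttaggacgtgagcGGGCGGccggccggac

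The 4 windows do not share 1 motif. APEX1 holds 3 copies of the E-box, the motif read by MYC and related factors, and 1 CCAAT box. PSME2 and STRN3 each hold 3 GC boxes, and SPTSSA holds 6 GC boxes, counting overlapping matches, with 2 CCAAT boxes. The table gave 76 windows for 50 of the 51 members, and TM9SF1 had none. Among the member windows, 60.5% held a GC box on either strand, against 42.6% of all 35116 windows. CCAAT was in 40.8% against 32%, CCGGAAG in 13.2% against 8.52%, CACGTG in 6.58% against 6.34%, and TATAAA in 6.58% against 10.7%. The median GC content was 59% in member windows and 58% in all windows. The median number of CpG, a C followed by a G, was 15 in member windows and 11 in all windows. These shares are descriptions, since neighbouring starts of 1 gene share sequence, and a match is not a bound site.

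The deposited values were quantile normalized, so every library sums to 678133 FPKM and the sequencing depth is unknown. Across genes, replicates correlated with r from 0.9957 to 0.9966, and libraries of different groups with r from 0.9591 to 0.9846. The lineage of the cells was checked with marker genes: HBG2, a fetal globin, averaged between 8517 and 9651 FPKM in the 4 groups, and GATA1, the erythroid and megakaryocytic transcription factor, between 335 and 383 FPKM. The lymphoid, granulocytic, epithelial and stromal markers did not exceed 0.764 FPKM in any library, with CD3D, MS4A1, ELANE and KRT5 at 0 in every one. PF4, a megakaryocyte granule gene, averaged 2.33 FPKM in untreated parental and 48.9 FPKM in untreated P/R cells. The part of that lineage difference in the levels of the 14q genes was not tested.

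In untreated cells, the members tested stood below the parental level by a similar factor, in a narrow range for genes of such different functions. The median ratio of mean FPKM in P/R to mean FPKM in parental cells was 0.673, with quartiles of 0.639 and 0.734. Of the 50, 44 had a ratio between 0.55 and 0.85, 3 were under this range and 3 over it. Among all genes tested, 15.5% had a ratio in that range, but the members were picked for being lower and the 2 shares carry no test. Both P/R libraries lay below both parental libraries for 48 of 50, where 33% of all genes tested showed this order. In bulk RNA, a lower level in all cells and an absent transcript in some of the cells cannot be told apart.

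Under OTX015, the members tested stood at nearly the same fraction of the parental level. The median ratio was 0.678, with quartiles of 0.648 and 0.75, and 46 of 50 lay between 0.55 and 0.85, where 16.1% of all genes tested did. Both P/R libraries lay below both parental ones for 48 of 50, against 32.6% of all genes tested, and for 46 of 50 they did so in both conditions, against 21%. On the log2(FPKM + 1) scale the median line difference was −0.53 untreated and −0.49 under OTX015, and −0.01 over all genes tested in each condition. This scale understates the change of low genes. The line difference of a member changed between the conditions by a median of 0.09 on that scale, and for 38 of 50 by less than 0.2.

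**Figure D1:**
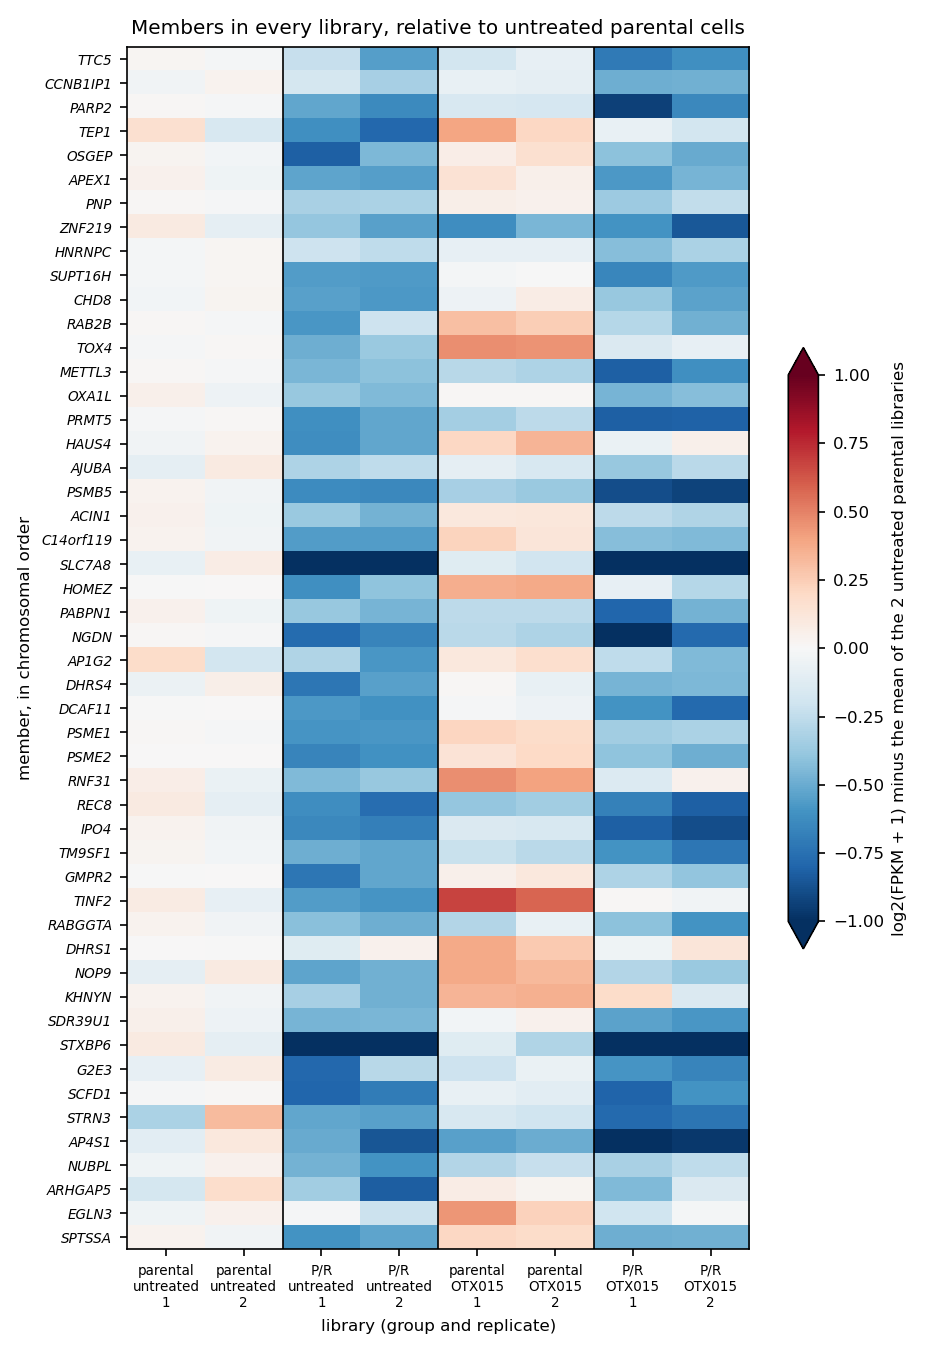
Members tested (rows, in chromosomal order) in each of the 8 libraries (columns), as log2(FPKM + 1) minus the mean of the 2 untreated parental libraries of the same gene; blue is lower and red is higher, with the scale ending at 1.00 in either direction. The 4 P/R columns are blue for most rows, with or without OTX015, and SLC7A8 and STXBP6 are past the end of the scale.

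Genes beyond SPTSSA stood nearer to the parental level than the members did. Gene order was taken from GENCODE 29 by Ensembl identifier. The interval holds 152 listed coding genes, of which 92 were tested: the 50 members and 42 others. The 42 others, which are not members, had a median ratio of 0.687 untreated and 0.717 under OTX015, close to the members. In untreated cells 25 of them lay between 0.55 and 0.85 (15.5% of all genes tested did), 8 below and 9 above. Under OTX015, 22 of them lay in that range (16.1% of all genes tested did), 7 below and 13 above. They were thus more spread than the members, but picking members for being lower narrows their range by itself.

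The first 25 tested genes after SPTSSA had median ratios of 0.965 untreated and 0.986 under OTX015, with a range in untreated cells from 0.719 to 1.28. Of these 25, 2 lay between 0.55 and 0.85 untreated and 3 under OTX015, where 15.5% and 16.1% of all genes tested did. The other 254 tested genes of chromosome 14 had medians of 0.991 and 0.985. No test of this difference was made, because the members were chosen by their level.

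The values on either side of the last member were as follows. The rule ends the interval at SPTSSA, among genes seen to be lower, so a difference at this point is partly built in. SPTSSA, which encodes a small subunit of serine palmitoyltransferase, the first enzyme of sphingolipid synthesis, read 9.91 and 9.4 FPKM in untreated parental libraries and 6.04 and 6.41 FPKM in untreated P/R libraries, a ratio of 0.644. EAPP, an E2F-associated protein gene and the next tested gene, read 12.2 and 13.7 FPKM in parental and 12.6 and 13.4 FPKM in P/R libraries, a ratio of 1.01. The P/R libraries were both lower for SPTSSA, and the lines overlapped for EAPP.

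The same order was seen under OTX015, where SPTSSA read 11.3 and 11.1 FPKM in parental and 6.61 and 6.65 FPKM in P/R cells (ratio 0.591). EAPP read 18.8 and 17.1 against 17.2 and 19.2 FPKM (ratio 1.02). The genes that follow EAPP did not all sit at 1: SNX6 had a ratio of 0.905 and CFL2, a low transcript, of 0.719 in untreated cells, with both P/R libraries of CFL2 lower in each condition, while BAZ1A stood at 1.15 and SRP54 at 1.12. Inside the interval, EGLN3, the member just before SPTSSA, had a ratio of 0.888 in untreated cells and overlapped between the lines. On the centromere side no edge can be read, since none of the 20 coding genes listed before TTC5 was tested and 1 of them reached 1 FPKM in any library.

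**Figure D2:**
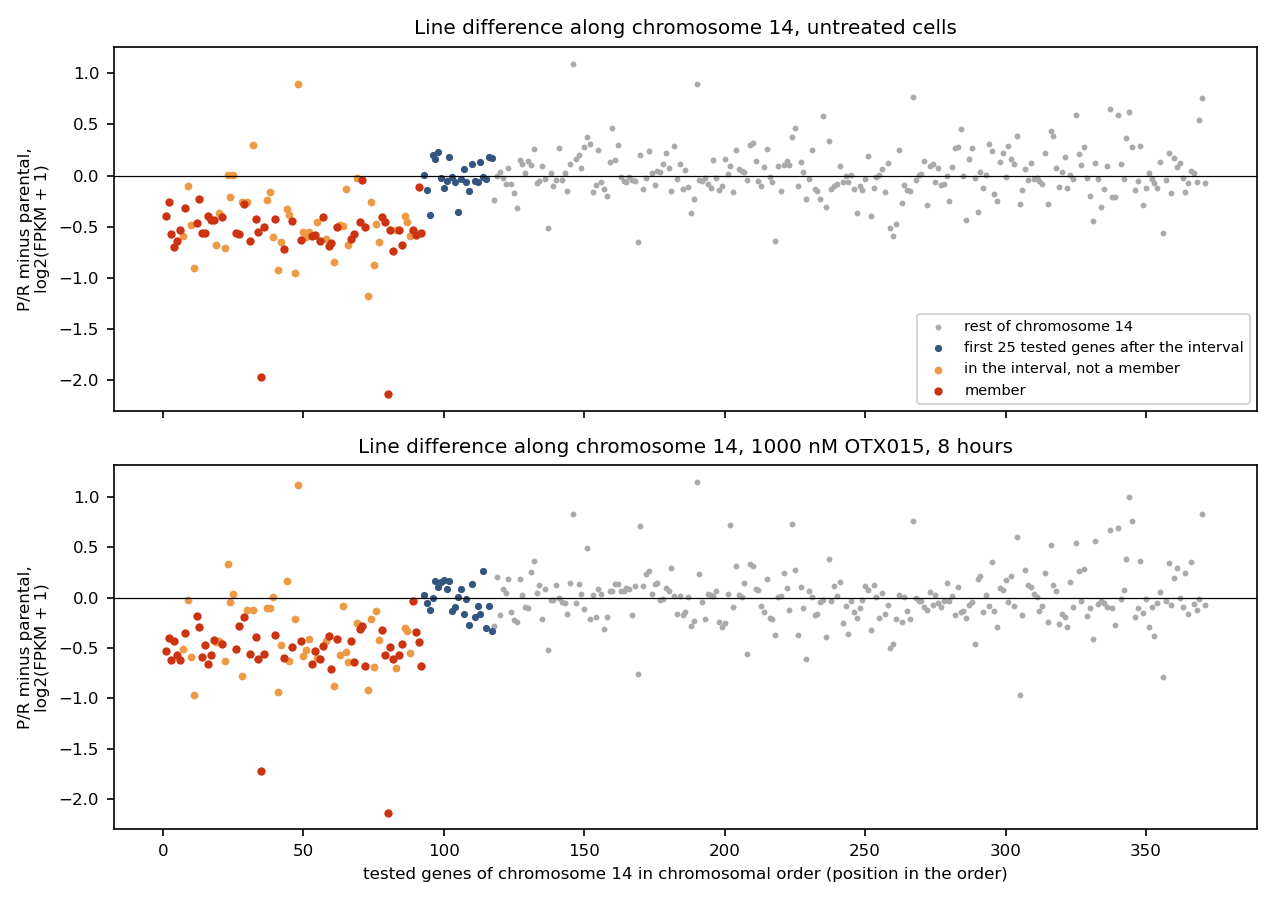
Line difference (P/R minus parental, log2(FPKM + 1)) of each tested gene of chromosome 14 in chromosomal order, untreated above and under OTX015 below; the horizontal axis is the position in that order and each point is 1 gene. The members (red) and the other genes of the interval (orange) have medians of −0.53 and −0.48 untreated, and the first 25 tested genes after the interval (dark blue) have a median of −0.03.

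Along the interval the block medians of the members had no steady trend. In 5 consecutive blocks of 10 members from TTC5 to SPTSSA, the median ratio was 0.691, 0.734, 0.662, 0.686 and 0.632 in untreated cells. Under OTX015 it was 0.695, 0.719, 0.656, 0.723 and 0.657. The blocks differed less from one another than their members did within each block, but medians vary less than single values. The members were chosen for being lower, and a trend was not tested.

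Chromatin and transcription genes gave 6 of the members tested, with a median ratio of 0.675 untreated and 0.682 under OTX015. PRMT5, which places symmetric dimethyl marks on arginines of histones and splicing proteins, read 150 and 152 FPKM in untreated parental and 98.3 and 105 FPKM in untreated P/R libraries (ratio 0.673, log2 difference −0.57 ± 0.05 SE). Under OTX015 it read 119 and 126 against 85.1 and 85.6 FPKM. All 4 P/R values lay below all 4 parental values.

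SUPT16H, the large subunit of the FACT complex that moves histones during transcription and replication, had almost no spread within groups. It read 97.8 and 100 FPKM in untreated parental and 66.9 and 66.4 FPKM in untreated P/R libraries, a ratio of 0.673 equal to that of PRMT5. CHD8, an ATP-dependent chromatin remodeller, read 44.7 and 46.4 against 31 and 30.2 FPKM (ratio 0.672). In untreated cells these 3 abundant chromatin genes thus had nearly equal ratios. Under OTX015 the ratios of PRMT5, SUPT16H and CHD8 were 0.698, 0.66 and 0.715.

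Under OTX015, SUPT16H read 97.4 and 98.4 against 62.6 and 66.6 FPKM, and CHD8 read 44 and 48.1 against 34.7 and 31.1 FPKM. The lines did not overlap for either. TOX4, a targeting subunit of a nuclear protein phosphatase, had a ratio of 0.735 untreated. The homeobox gene HOMEZ stood at 0.677 and the zinc finger gene ZNF219 at 0.694. ZNF219 was the exception under OTX015, where its libraries overlapped, with 5.59 and 6.4 FPKM in parental and 5.72 and 4.65 FPKM in P/R cells.

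**Figure D3:**
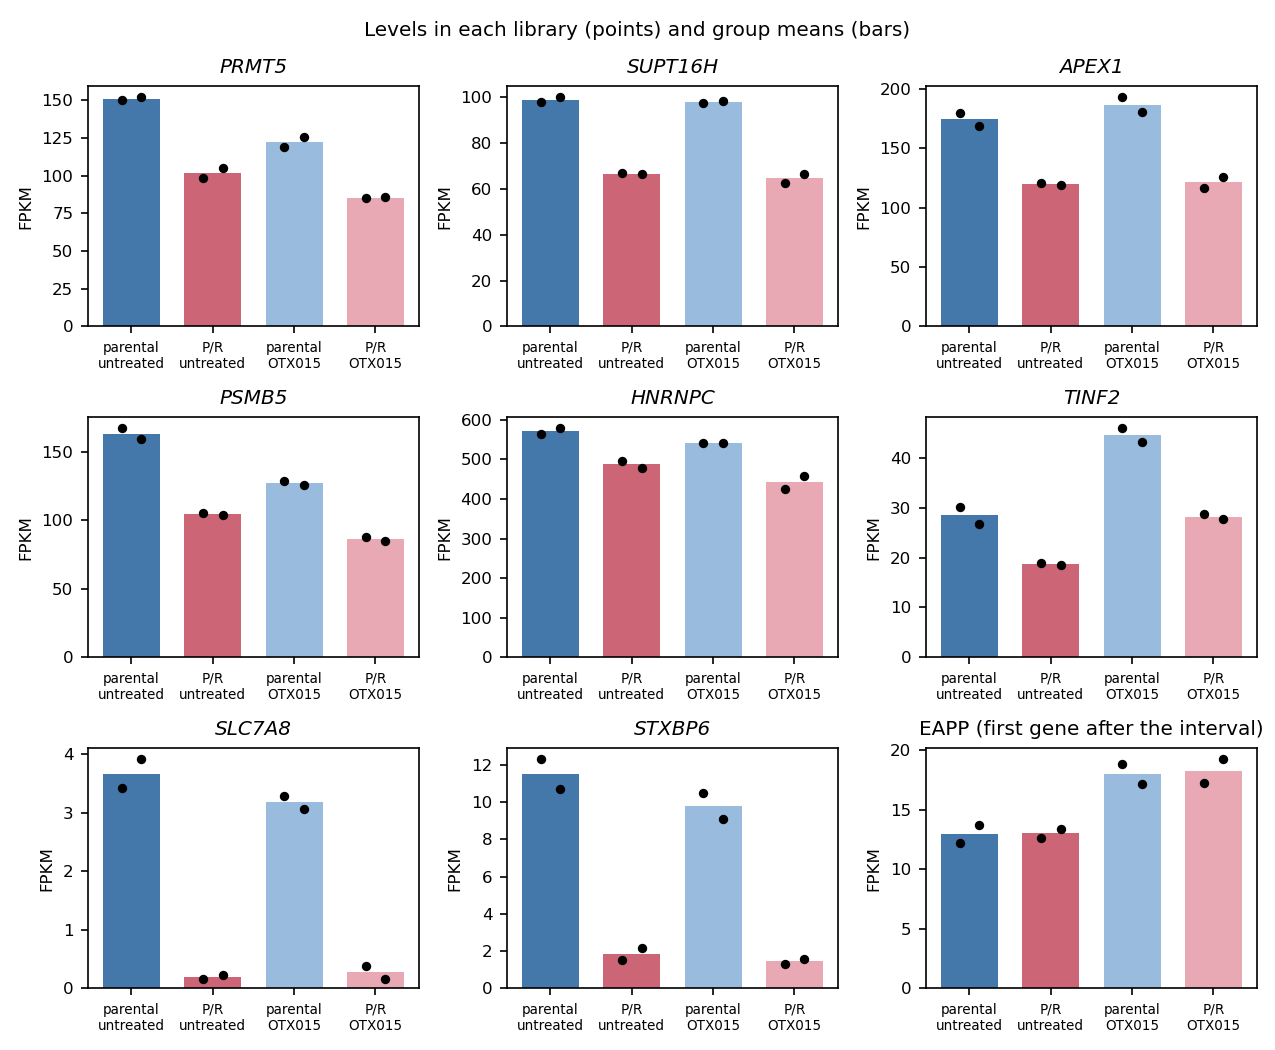
FPKM of 8 members and of EAPP in each library (points) and as group means (bars), with separate linear axes starting at 0. PRMT5, SUPT16H, APEX1, PSMB5, HNRNPC and TINF2 are lower in P/R cells in both conditions without overlap, SLC7A8 and STXBP6 are lower by far more, and EAPP, just beyond the interval, has overlapping values.

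RNA processing and modification genes gave 8 members, with the highest median ratio of the 8 roles, at 0.731 untreated and 0.75 under OTX015. HNRNPC, an abundant binder of nascent transcripts, was the most highly expressed member, at 565 and 578 FPKM in untreated parental and 495 and 479 FPKM in untreated P/R libraries. Its ratio of 0.853 was among the closest to 1, yet the lines did not overlap. HNRNPC has closely similar family copies elsewhere in the genome, so its level is uncertain.

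ACIN1, a splicing-associated protein of the exon junction complex, read 135 and 127 against 101 and 94.2 FPKM (ratio 0.745). PABPN1, the nuclear poly(A)-binding protein, read 130 and 122 against 96.8 and 91.1 FPKM, with the same ratio of 0.745. METTL3, the catalytic subunit that methylates adenosines in messenger RNA, read 33.6 and 33.2 against 24 and 24.9 FPKM (ratio 0.733). None of these 3 overlapped between the lines.

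NGDN, a nucleolar factor of small ribosomal subunit assembly, was lower than the others of its role, with 64.4 and 63.4 FPKM in untreated parental and 37.1 and 40.1 FPKM in untreated P/R libraries (ratio 0.604). With the drug, the values were 52.7 and 51.3 against 31.3 and 36.8 FPKM. The tRNA-modifying enzyme gene OSGEP had a ratio of 0.634, the ribosome assembly gene NOP9 of 0.681 and KHNYN, a cofactor of an antiviral RNA-binding protein, of 0.73.

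DNA repair, telomere and cell division genes gave 9 members, with median ratios of 0.662 and 0.676. APEX1, which cuts DNA at abasic sites in base excision repair, read 180 and 169 FPKM in untreated parental and 121 and 119 FPKM in untreated P/R libraries (ratio 0.689). In OTX015-treated cells it read 193 and 181 against 117 and 126 FPKM. PARP2, a poly(ADP-ribose) polymerase that responds to DNA breaks, had a ratio of 0.661, with 26.6 and 26.3 against 18.2 and 16.7 FPKM. Both repair genes were lower in P/R cells without overlap.

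TINF2, the shelterin subunit that links the double-strand telomere binders, read 30.2 and 26.7 against 19 and 18.5 FPKM untreated (ratio 0.659), and TEP1, a vault and telomerase-associated protein, read 13.2 and 10.4 against 7.3 and 6.38 FPKM (ratio 0.58). HAUS4, a subunit of the augmin complex that seeds spindle microtubules, read 28.9 and 30.4 against 18.9 and 20.4 FPKM (ratio 0.662). REC8, the cohesin subunit of meiosis and a low transcript here, read 3.89 and 3.31 against 1.99 and 1.71 FPKM (ratio 0.514). All 4 were lower in P/R cells in both conditions without overlap.

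CCNB1IP1, a ubiquitin ligase gene known for its part in meiotic crossing over, was among the members nearest to the parental level, with 47.4 and 49.6 against 42.8 and 38.3 FPKM (ratio 0.836). TTC5, a stress-responsive cofactor and the first member on the chromosome, had a ratio of 0.746, and the ubiquitin ligase gene G2E3 of 0.668.

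Proteasome and ubiquitin genes gave 5 members with untreated ratios from 0.639 to 0.745 around a median of 0.659. PSMB5, the catalytic subunit that proteasome inhibitor drugs bind, read 167 and 159 FPKM in untreated parental and 105 and 104 FPKM in untreated P/R libraries (ratio 0.64, log2 difference −0.64 ± 0.04 SE). PSME1 and PSME2 encode the 2 subunits of the interferon-inducible proteasome activator. PSME1 read 148 and 146 against 97.5 and 98 FPKM (ratio 0.665). PSME2 read 156 and 156 against 98.1 and 102 FPKM (ratio 0.639). The activator pair thus kept almost equal levels to each other in each line, on the per-length scale.

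Under OTX015, PSMB5 read 129 and 126 against 87.8 and 85.2 FPKM, PSME1 171 and 167 against 115 and 118 FPKM, and PSME2 172 and 179 against 118 and 111 FPKM. The lines did not overlap for any of them. RNF31, the catalytic subunit of the linear ubiquitin chain assembly complex, had a ratio of 0.745, and DCAF11, a substrate receptor of a cullin ubiquitin ligase, of 0.659.

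Metabolic and mitochondrial genes gave 8 members with median ratios of 0.683 and 0.731. PNP, purine nucleoside phosphorylase of nucleoside salvage, read 198 and 194 FPKM in untreated parental and 156 and 157 FPKM in untreated P/R libraries (ratio 0.799). OXA1L, the insertase of the inner mitochondrial membrane, read 109 and 101 against 80.5 and 76.9 FPKM (ratio 0.75). SDR39U1, a short-chain dehydrogenase family gene, read 53.5 and 50 against 37.2 and 37.5 FPKM (ratio 0.722). All 3 were lower in P/R cells without overlap, and by less than the median of the group.

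The highest ratio belonged to DHRS1, a dehydrogenase gene of low level. It read 4.34 and 4.32 FPKM in untreated parental and 3.91 and 4.48 FPKM in untreated P/R libraries (ratio 0.969), and the lines overlapped. The treated libraries read 5.94 and 5.39 against 4.18 and 4.8 FPKM (ratio 0.792), without overlap. The guanosine monophosphate reductase gene GMPR2 had a ratio of 0.641. DHRS4 had a ratio of 0.622 but shares near-identical copies in the same cluster, so its reads may have been divided.

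NUBPL, an assembly factor of mitochondrial complex I, was lower in untreated P/R cells and level with the parent under the drug. It read 3.35 and 3.6 FPKM in untreated parental and 2.23 and 1.95 FPKM in untreated P/R libraries (ratio 0.601). Under OTX015 it read 2.65 and 2.82 against 2.57 and 2.75 FPKM (ratio 0.972), with overlap. The difference between the conditions was not called in the test given below for all members.

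Membrane traffic and transport genes gave 9 members tested and the lowest median ratio, 0.627 untreated and 0.64 under OTX015. The group holds the 2 members that were far below the rest. STXBP6, which encodes amisyn, a binder of SNARE proteins in exocytosis, read 12.3 and 10.7 FPKM in untreated parental and 1.51 and 2.18 FPKM in untreated P/R libraries (ratio 0.16). With the drug, the values were 10.5 and 9.1 against 1.33 and 1.6 FPKM (ratio 0.15). Its log2 difference was −2.14 untreated and −2.13 under OTX015.

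SLC7A8, an amino acid transporter of the plasma membrane, read 3.42 and 3.91 FPKM in untreated parental and 0.154 and 0.224 FPKM in untreated P/R libraries (ratio 0.0516). In OTX015-treated cells it read 3.29 and 3.07 against 0.376 and 0.166 FPKM (ratio 0.0852). It passed the level filter through its parental libraries alone, so that a difference was built into its inclusion. SLC7A7, the related transporter gene, is the member that did not pass: it read 0.624 and 0.987 FPKM in untreated parental and 0.87 and 0.639 FPKM in untreated P/R libraries. Its lines overlapped, and its OTX015 libraries ranged from 0.166 to 0.287 FPKM.

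The other traffic genes tested had untreated ratios between 0.58 and 0.738. IPO4, an importin of nuclear import, read 77.6 and 73.5 against 48 and 46.7 FPKM (ratio 0.627). SCFD1, a regulator of vesicle fusion between endoplasmic reticulum and Golgi, read 21.2 and 21.5 against 11.9 and 12.8 FPKM (ratio 0.58). Neither gene overlapped between the lines. AP1G2, a clathrin adaptor subunit, read 52 and 40.2 against 37 and 30.2 FPKM (ratio 0.729). RABGGTA, a subunit of the enzyme that attaches lipid to Rab proteins, read 22.8 and 21.6 against 16.4 and 15.5 FPKM (ratio 0.717). These 2 genes were also lower in both P/R libraries. RAB2B, a Rab GTPase gene, had a ratio of 0.738, TM9SF1 of 0.69 and the adaptor subunit gene AP4S1 of 0.583.

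Signalling, adhesion and oxygen-sensing genes gave 4 members, all of low level, with median ratios of 0.702 and 0.703. STRN3, a regulatory subunit of protein phosphatase complexes, read 7.61 and 12.4 FPKM in untreated parental and 6.51 and 6.38 FPKM in untreated P/R libraries (ratio 0.644), and its parental replicates were further apart than parental replicate 1 was from P/R cells. ARHGAP5 read 5.67 and 7.54 against 4.93 and 3.26 FPKM (ratio 0.62). AJUBA, a LIM-domain scaffold gene, read 2.7 and 3.18 against 2.17 and 2.3 FPKM (ratio 0.76). For these 3 both P/R values were lower than both parental values.

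EGLN3, an oxygen-dependent prolyl hydroxylase gene, overlapped between the lines when untreated, with 1.99 and 2.18 against 2.06 and 1.65 FPKM (ratio 0.888). The treated libraries read 3.18 and 2.62 against 1.68 and 2.05 FPKM (ratio 0.645). C14orf119, which was given no role, read 56.4 and 53.6 against 37.1 and 37.1 FPKM (ratio 0.675). Among the 44 members with an untreated parental mean of at least 5 FPKM, all ratios but that of STXBP6 lay between 0.58 and 0.853.

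Within each line, the response of the members to OTX015 was small. In parental cells 11 of 50 members rose (22%, against 25.7% of all genes tested) and 10 fell (20%, against 24.7%), by limma with Benjamini-Hochberg adjusted p under 0.05. In P/R cells 10 rose (20%, against 22.5%) and 6 fell (12%, against 21.8%). The shares were near or below the background. The drug comparisons use the same untreated libraries as the line comparison, so the 2 sets of values are not independent. Changes of at least 0.5 on the log2(FPKM + 1) scale were found for 3 of 50 members in each line, where 20.5% of all genes tested in parental and 16.4% in P/R cells changed that much. The counts depended on single libraries. In parental cells, 7 rose without untreated replicate 2 and 6 without OTX015 replicate 2, and 6 fell without untreated replicate 1 and 4 without OTX015 replicate 2. In P/R cells, 3 fell without untreated replicate 1.

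Among the members tested, TINF2 had the largest change in parental cells. It rose from 30.2 and 26.7 FPKM to 45.9 and 43.1 FPKM in parental cells (log2 change 0.63 ± 0.07 SE, limma adjusted p = 0.000104). In P/R cells it rose from 19 and 18.5 FPKM to 28.7 and 27.7 FPKM (0.56 ± 0.07, adjusted p = 0.000259). The treated P/R level thereby overlapped the untreated parental level, while the treated parental level stayed above both. TOX4 rose in both lines, from 33.8 and 34.2 to 47.4 and 46.8 FPKM in parental cells (0.46 ± 0.06, limma adjusted p = 0.000261) and from 24 and 26 to 30.6 and 32.1 FPKM in P/R cells (0.32 ± 0.06, adjusted p = 0.00265). RNF31 rose by 0.43 in parental and 0.36 in P/R cells (limma adjusted p = 0.00153 and 0.00511). The calls for TINF2, TOX4 and RNF31 held in both lines under every alternative run.

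HAUS4 and TEP1 had their larger changes in P/R cells. HAUS4 went from 18.9 and 20.4 to 28.2 and 30.7 FPKM in P/R cells (0.56 ± 0.07, limma adjusted p = 0.000328) and from 28.9 and 30.4 to 34.4 and 37.8 FPKM in parental cells (0.28 ± 0.07, adjusted p = 0.0123). The parental call was lost without untreated parental replicate 1 or parental OTX015 replicate 2. TEP1 went from 7.3 and 6.38 to 11.1 and 10.2 FPKM in P/R cells (0.57 ± 0.12, limma adjusted p = 0.00433). Its parental change of 0.30 ± 0.12 missed the threshold (limma adjusted p = 0.0618). That change passed without untreated parental replicate 1 or with the replicate number as a block. The difference between the lines was not called for either gene.

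The activator subunits rose together in both lines, PSME1 by 0.20 in parental and 0.25 in P/R cells (limma adjusted p = 0.00302 and 0.00104) and PSME2 by 0.17 and 0.20 (adjusted p = 0.0153 and 0.00803). The catalytic subunit went the other way: PSMB5 fell by 0.35 in parental and by 0.27 in P/R cells (limma adjusted p = 0.000214 and 0.00125). The PSME2 call was lost in parental cells without either untreated replicate, without OTX015 replicate 2 or with no variance trend, and in P/R cells without untreated replicate 1. KHNYN and HOMEZ also rose in both lines, with KHNYN at 0.34 and 0.43 and HOMEZ at 0.37 and 0.32 (limma adjusted p from 0.0122 to 0.031). The KHNYN call was lost in parental cells on leaving out any 1 of their 4 libraries or with no level filter, and in P/R cells without untreated replicate 2 or OTX015 replicate 1. The HOMEZ call was lost in parental cells without OTX015 replicate 2 and in P/R cells without untreated replicate 1 or OTX015 replicate 1, with no level filter, or in a fit of only the groups compared.

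Falling members included 2 methyltransferase genes. PRMT5 fell by 0.30 in parental and by 0.25 in P/R cells (limma adjusted p = 0.000919 and 0.00338). METTL3 fell from 33.6 and 33.2 to 27.4 and 26.7 FPKM in parental cells and from 24 and 24.9 to 18.5 and 21.5 FPKM in P/R cells (limma adjusted p = 0.00917 and 0.0137). The METTL3 call was lost in parental cells without OTX015 replicate 2 and in P/R cells without untreated replicate 2 or OTX015 replicate 1. ZNF219 fell from 9.81 and 8.52 to 5.59 and 6.4 FPKM in parental cells (−0.54 ± 0.12, limma adjusted p = 0.00484). AP4S1 fell from 7.57 and 8.9 to 5.33 and 5.52 FPKM in parental cells (−0.52 ± 0.13, limma adjusted p = 0.00816), a call lost without untreated parental replicate 2. In P/R cells ZNF219 changed by −0.26 and AP4S1 by −0.31, and neither passed the threshold (limma adjusted p = 0.114 and 0.0807), though AP4S1 did so without untreated P/R replicate 2.

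**Figure D4:**
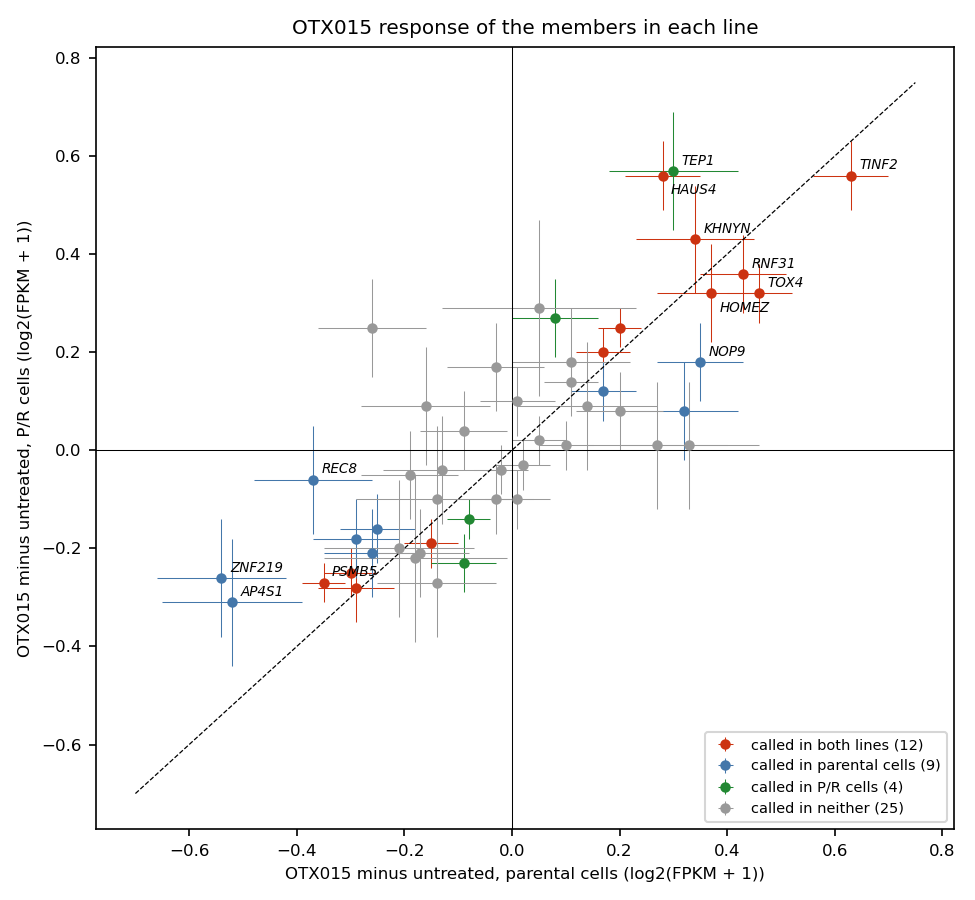
OTX015 response of each member tested in parental cells (horizontal) and P/R cells (vertical), as the log2(FPKM + 1) difference with bars of 1 standard error, coloured by the lines in which limma called it; the dashed line marks equal responses. Of the 50 points, 12 were called in both lines in the same direction (36.8% of all genes tested were), 9 in parental cells alone (13.5%), 4 in P/R cells alone (7.37%), 25 in neither (42.3%) and 0 in opposite directions (0.0977%).

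No member was called for a difference in OTX015 response between the lines. The test was the interaction contrast of limma, the only tool run, and it called 0 of 50 members at an adjusted p under 0.05, where 0.0178% of all genes tested were called lower and 0.0622% higher. At an unadjusted p under 0.05 there were 2, NUBPL and HAUS4, which are named here after their values were seen. The smallest adjusted p was 0.31, for NUBPL, with a difference of 0.51 ± 0.15 SE. That of HAUS4 was 0.29 ± 0.10 (limma adjusted p = 0.42). The standard errors of the difference ran from 0.06 to 0.25 among the members, and 47 of 50 estimates were under 0.3 in size. Differences of that order, and larger ones such as that of NUBPL, could pass unseen. The absence of a call therefore does not exclude them for any member.

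Genes of the same complexes encoded elsewhere mostly did not follow the members. Of 84 listed partners, 81 were tested, with a median P/R to parental ratio of 0.966 untreated and 0.979 under OTX015. In untreated cells 9 of 81 lay between 0.55 and 0.85, and under OTX015 13 did, where 15.5% and 16.1% of all genes tested did. Limma called 11 lower (13.6%, against 11.9% of all genes tested) and 5 higher (6.17%, against 11.7%) in untreated P/R cells. Under OTX015 it called 12 lower (14.8%, against 11.7%) and 7 higher (8.64%, against 12.7%). The shares lower were near those of all genes tested. The counts depended on single libraries: the 16 called in untreated cells became 10 without P/R replicate 1 and 9 without P/R replicate 2. The 19 called under OTX015 became 11 without parental replicate 2 and 12 without P/R replicate 1.

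SSRP1, the other subunit of FACT, read 126 and 121 FPKM in untreated parental and 119 and 120 FPKM in untreated P/R libraries (ratio 0.967, limma adjusted p = 0.506), beside 0.673 for SUPT16H. WDR77, the obligate partner of PRMT5, read 81.3 and 86.8 against 79.7 and 81.5 FPKM (ratio 0.958, adjusted p = 0.523). METTL14, which forms the methyltransferase with METTL3, had a ratio of 0.976 and WTAP of 0.945, beside 0.733 for METTL3. The 5 shelterin partners of TINF2 had a median ratio of 0.91, and the 7 augmin partners of HAUS4 of 0.935. WDR77, SSRP1, METTL14, WTAP and every tested partner of TINF2 and HAUS4 had a higher ratio than the 14q subunit beside it. The 14q subunits were chosen for being lower, so a higher ratio in a partner is partly built in and was not tested.

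The 18 proteasome partners had a median ratio of 0.912 and were less uniform. PSMA3 and PSMA6, which lie on chromosome 14 beyond the interval, had ratios of 0.989 and 0.963. PSMB3 read 418 and 399 against 261 and 264 FPKM (ratio 0.641, limma adjusted p = 8.55e-06) and PSME3, another proteasome activator subunit, 145 and 145 against 100 and 102 FPKM (ratio 0.695, adjusted p = 4.31e-05). PSMB6 was higher, at 128 and 132 against 170 and 175 FPKM (ratio 1.32, adjusted p = 0.00012). These 3 genes lie on chromosome 17.

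Base excision repair held the lowest partners. PARP1, the main poly(ADP-ribose) polymerase, on chromosome 1, read 175 and 181 FPKM in untreated parental and 110 and 109 FPKM in untreated P/R libraries (ratio 0.612, limma adjusted p = 4.74e-06). LIG3, the DNA ligase of mitochondria and single-strand break repair, on chromosome 17, read 28.8 and 29.2 against 19.7 and 15.1 FPKM (ratio 0.60, adjusted p = 0.00141). The uracil glycosylase gene UNG had a ratio of 0.802 (limma adjusted p = 0.00111). XRCC1, the scaffold of the pathway, had a ratio of 0.999. Thus 3 of the 7 tested repair partners were called lower in untreated P/R cells, where 11.9% of all genes tested were. COPRS, a cofactor of PRMT5 on chromosome 17, had a ratio of 0.628 (limma adjusted p = 0.00108). With COPRS, 4 of the 5 tested partners on chromosome 17 were called lower and 1 higher in each condition. Of all genes tested, 11.9% untreated and 11.7% under OTX015 were called lower, and 11.7% and 12.7% higher. Both groups are small, and the partner lists were chosen with earlier results known.

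**Figure D5:**
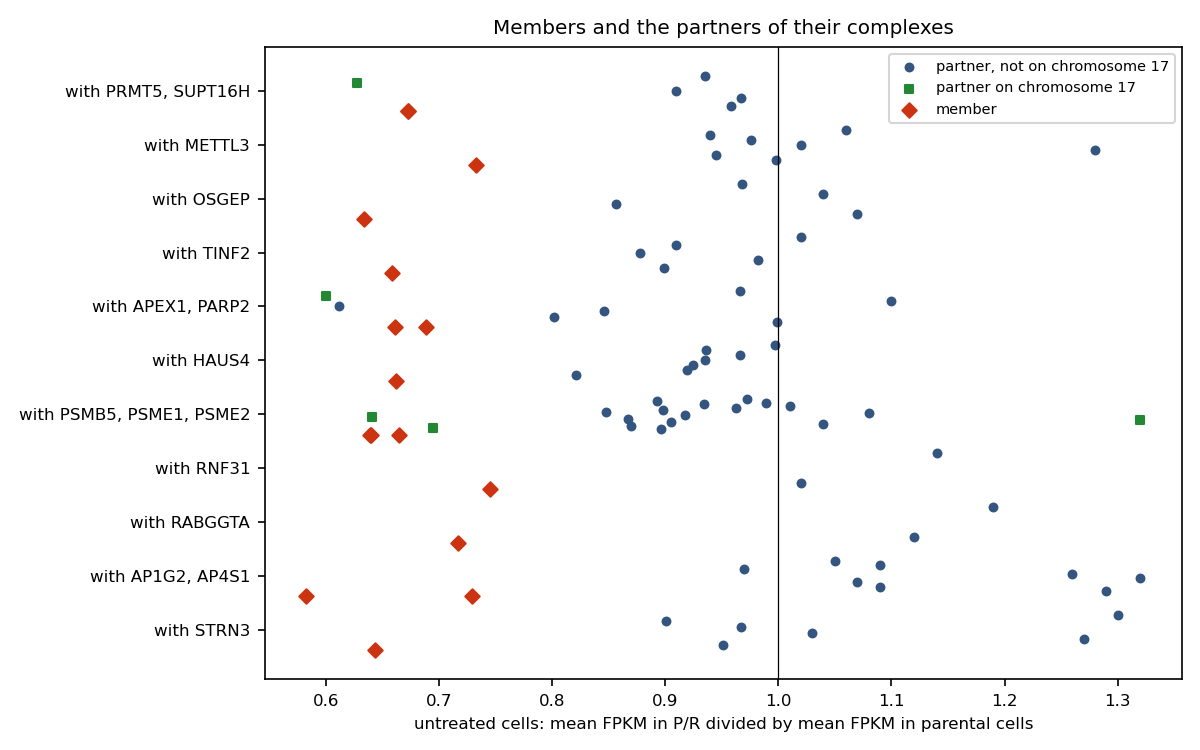
Ratio of mean FPKM in untreated P/R to untreated parental cells for members (diamonds) and the partner genes of their complexes (circles, with squares for those on chromosome 17), 1 row per complex or group, points offset vertically for visibility. The members drawn lie between 0.583 and 0.745, most partners drawn lie nearer to 1, and those as far to the left as the members are PARP1 and 4 genes of chromosome 17.

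Not every gene of the interval had a ratio like those of most members. Among the 42 tested genes that are not members, the largest differences downward in untreated cells, on the log2(FPKM + 1) scale, were those of CIDEB, JPH4 and SLC22A17. CIDEB, a lipid droplet gene, read 31.2 and 31.2 FPKM in untreated parental and 13.5 and 12.9 FPKM in untreated P/R libraries (ratio 0.423). JPH4, a junctional membrane gene, read 2.53 and 2 against 0.848 and 0.526 FPKM (ratio 0.303). It passed the level filter through its untreated parental libraries alone, so that a difference was built into its inclusion. SLC22A17 read 6.46 and 5.71 against 2.64 and 2.8 FPKM (ratio 0.447). CIDEB shares exonic bases with NOP9 on the opposite strand, amounting to 32.4% of NOP9, and the sources do not say whether the counting used strand.

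DHRS2, a dehydrogenase gene next to DHRS4 in the interval, went the other way. It read 1.22 and 1.25 FPKM in untreated parental and 2.71 and 3.67 FPKM in untreated P/R libraries (ratio 2.58). Under OTX015 it read 9.41 and 9.44 against 21.5 and 21.8 FPKM (ratio 2.29). CDH24, a cadherin gene, was higher in untreated P/R cells, at 0.657 and 0.722 against 1.2 and 0.974 FPKM, but overlapped under OTX015, at 1.82 and 2.34 against 1.79 and 1.85 FPKM. MMP14, a membrane-bound matrix metalloprotease gene, overlapped between the untreated lines, with 18.8 and 17.9 against 18.3 and 18.6 FPKM. Under OTX015 it was higher in P/R cells without overlap, at 12.8 and 13.1 against 15.9 and 17.3 FPKM.

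Several members share exons or start regions with neighbours, so their values are not all separate measurements. Of the 51 members, 24 overlap an exon of another listed gene, 16 of them over more than 5% of their own exonic bases. The largest shares are 95.2% for IPO4 and 67.6% for TM9SF1, both with unnamed loci on the same strand, and 64.4% for SDR39U1 with KHNYN on the opposite strand. HAUS4 shares 43.1% with RP11-298I3.5 and RNF31 46.7% with another unnamed locus, again on the same strand, so the drug responses given for both may include fragments of those loci. The replicates of RP11-298I3.5 were far apart, with 6.55 and 0.0027 FPKM in parental OTX015 libraries. Fragments from shared exons of same-strand loci cannot be told apart by strand, and those of opposite-strand pairs cannot without it.

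In 9 pairs that include a member, a minus-strand and a plus-strand gene start within 500 bases of each other. OSGEP and APEX1, whose starts are 413 bases apart, stood at 0.634 and 0.689 in untreated cells. PSME2 and RNF31, 264 bases apart, stood at 0.639 and 0.745, and STRN3 and AP4S1, 263 bases apart, at 0.644 and 0.583. DHRS1 and NOP9, 69 bases apart, differed, at 0.969 and 0.681. So did NRL and DCAF11 (333 bases), at 0.302 and 0.659, and NEDD8-MDP1 and GMPR2 (254 bases), at 0.905 and 0.641. NRL and NEDD8-MDP1 are low transcripts and not members. NRL passed the level filter through parental libraries alone, so that a difference was built into its inclusion. ACIN1 and C14orf119 (33 bases) stood at 0.745 and 0.675, and NEDD8 and GMPR2 (254 bases) at 0.624 and 0.641. RAB2B and TOX4 (235 bases) stood at 0.738 and 0.735. These values are descriptions, and the members among these neighbours were chosen for being lower.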

How the data were processed

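RNA sequencing of 8 libraries (4 groups of 2) was deposited by the authors as 1 table of 19718 coding genes. Its unit is taken to be FPKM, inferred from the values and from the tools in the submitters' processing notes (TopHat2 2.0, Cufflinks 2.0, build hg19). The deposited FPKM are quantile normalized, as the values show: from 1 FPKM upwards, sorted values of any pair of libraries differ by at most 0.136%. The sources used here do not give depth, strand or poly(A) selection. Normalization of this kind removes any global change in RNA content.

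Genes with at least 1 FPKM in at least 2 libraries (11255) were fitted as log2(FPKM + 1) with 4 group means in limma 3.58.1 (R 4.3.3), with a variance trend (residual degrees of freedom 4, prior 5.23). The code was tested on simulated data. Tests are two-sided, p-values were adjusted by Benjamini-Hochberg across the 11255 genes, and calls were made under 0.05. An exact permutation test of 2 against 2 libraries cannot go below 0.333. Ratios are of mean FPKM. Of the genes, 19472 were placed by GENCODE 29, and 28 symbols that had become numbers were named by identifier.

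Members, roles and partner lists were chosen with earlier results of these data known. The rule for naming genes took the 6 largest and 6 smallest untreated line differences and the 3 most abundant members of each role. It also took drug changes of at least 0.5 and the 3 extreme interval genes each way. Untreated values are printed for each of these, except those of ZNF219 and AP4S1 in P/R cells. OTX015 values are printed for only some of them. Members described by a ratio, a drug change under 0.5 or a partner's value, and METTL3, PARP2, TOX4, SPTSSA, NUBPL and TTC5, are named beyond that rule, after their values were seen. Alternatives tried were other pseudocounts and filters, no variance trend, median centring, the replicate number as a block, fits of only the groups compared, and leaving out each library.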

Additional observations from a re-analysis of the deposited data

How the results depend on the processing

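No value past the threshold changed direction under any alternative run. Median log2 line differences of the members (−0.535 untreated, −0.488 under OTX015) became −0.571 and −0.545 with a pseudocount of 0.1, and −0.405 and −0.423 with a pseudocount of 5, which weighs low genes less. With a mean of at least 5 FPKM the OTX015 value was −0.52. The medians of the other interval genes (−0.484 and −0.426) became −0.514 and −0.494 with the pseudocount of 0.1, −0.356 and −0.281 with that of 5, −0.544 and −0.456 with a mean of at least 5 FPKM, and −0.161 and −0.068 with no filter, where unexpressed genes enter. The first 25 genes after the interval had a median of 0.015 under OTX015 with a mean of at least 5 FPKM.

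Leaving out 1 library at a time gave ranges, untreated and under OTX015, of −0.535 to −0.528 and −0.528 to −0.488 for the members, −0.548 to −0.471 and −0.445 to −0.394 for the other interval genes, and −0.067 to 0.082 and −0.057 to 0.09 for the 25 genes after, which lie on both sides of 0. Partners called ranged from 9 to 16 untreated and from 11 to 18 under OTX015, and for the drug in P/R cells from 25 (without untreated P/R replicate 2) to 40, around 39. Members that rose ranged from 6 to 12 in parental and 7 to 10 in P/R cells, and those that fell from 4 to 10 and 3 to 7. Of the single-member values for the drug and the difference in response, 2244 kept their side of the threshold, 23 gained a call and 65 lost one.

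Replicate numbers are shared across groups but did not pair the libraries: deviations of same-numbered libraries correlated at 0.007 and −0.12 for the line comparisons, untreated and under OTX015, and at 0.014 for both drug comparisons. With the replicate block, 12 members rose and 10 fell in parental cells and 11 rose and 6 fell in P/R cells, with TEP1 in parental and ACIN1 in P/R cells gaining a call, while the medians stayed at −0.535 and −0.488, and no member was called for a difference in response. A crossed block for the OTX015 line comparison, added after seeing the data, was fitted on only the groups compared and called 3107 genes. The fit of all 8 libraries without a block called 2747, so both the block and the libraries used differ between these counts. Unknown depth prevents a counting error for members of low FPKM.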
